A study of Mus musculus with 18 samples.

Results

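The 8 genes described here make glutathione, recycle it or supply the cysteine it is built from: *Gclc*, *Gclm*, *Gss*, *Gsr*, *Slc7a11*, *Slc3a2*, *Cth* and *Cbs*. They were chosen by name, as steps of the pathway, from the 47729 genes of the count table, with earlier results of these data known. RNA of the retinal pigment epithelium (RPE), the cell layer behind the photoreceptors, was sequenced from 18 eyes of 9 *rd1* mice on the FVB/N background at P40. All of these mice carry the *Pde6b* allele that removes its function and lose their rods early in life. In each mouse, the Best1-Nrf2 eye had received, under the retina, an adeno-associated virus (AAV8) with the human *Nrf2* cDNA behind the human Best1 promoter, which restricts expression to the RPE, together with the AAV-Best1-GFP vector. The other eye, called control, was given AAV-Best1-GFP without the Nrf2 vector. By the methods of the study, the GFP vector had another capsid, less infective for the RPE. The Best1-Nrf2 eyes also received more vector in total, and the effect of vector dose was not tested. The labels give all 18 libraries as *rd1* at P40, whereas the methods of the study state fewer *rd1* pairs at this age than the labels list. The labels were followed, so the comparisons between groups rest on 9 pairs. Mouse numbers below are those of the labels, so that both eyes of a mouse share a number (n = 9 eyes per group). The comparison between the eyes asks how each step of the pathway stood when Nrf2 was in excess.

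Glutathione is a tripeptide of glutamate, cysteine and glycine, and is the main thiol antioxidant of most cells, the RPE included. Glutamate-cysteine ligase, made of the catalytic subunit *Gclc* and the modifier subunit *Gclm*, joins glutamate to cysteine in what is usually the rate-limiting step, and glutathione synthetase (*Gss*) adds glycine. Glutathione reductase (*Gsr*) returns the oxidized form to the reduced one with NADPH. Cysteine enters mostly as cystine through system xc-, in which *Slc7a11* is the transporting light chain and *Slc3a2* the heavy chain that it shares with other amino acid carriers, or is made from methionine by transsulfuration, in which *Cbs* (cystathionine beta-synthase) and *Cth* (cystathionine gamma-lyase) act in turn. Nrf2 is a transcription factor that binds the antioxidant response element and has several of these genes among its textbook targets.

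Of the 8 genes, RefSeq promoter sequences on GRCm38.p6 were at hand for *Slc7a11*, *Gclm*, *Gss*, *Slc3a2* and *Cbs*. Both strands were searched for TGACNNNGC, the core of the antioxidant response element, which 12.4% of 32851 promoters of the same length hold, and for TGATGNAA, a core of the amino acid response element, which 3.97% hold. The 2 promoters with a match are shown, 5′ to 3′ on the strand of the gene, because both genes rose in every mouse. Capitals mark the matches. The *Gclm* promoter lies at chr3:122245307-122245606 on the plus strand and the *Slc7a11* promoter at chr3:50443564-50443863 on the minus strand.
Gclm: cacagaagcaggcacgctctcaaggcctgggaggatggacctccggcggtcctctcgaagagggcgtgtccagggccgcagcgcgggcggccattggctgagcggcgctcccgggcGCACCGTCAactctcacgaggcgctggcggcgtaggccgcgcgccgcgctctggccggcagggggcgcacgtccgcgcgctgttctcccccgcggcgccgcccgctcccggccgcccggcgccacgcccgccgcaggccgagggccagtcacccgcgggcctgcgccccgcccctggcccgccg
Slc7a11: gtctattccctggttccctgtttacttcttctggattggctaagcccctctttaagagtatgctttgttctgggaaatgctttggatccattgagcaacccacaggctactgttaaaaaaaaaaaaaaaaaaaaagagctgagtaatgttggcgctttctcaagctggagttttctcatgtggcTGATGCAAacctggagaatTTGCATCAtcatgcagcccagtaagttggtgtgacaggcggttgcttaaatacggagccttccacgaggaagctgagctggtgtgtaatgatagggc
In *Gclm* the TGACNNNGC match is on the opposite strand with its first base at -134 from the start of the gene. In *Slc7a11* a TGATGNAA match begins at -66 on the strand of the gene and another at -47 on the opposite strand. The windows of *Gss*, *Slc3a2* and *Cbs* held neither run of letters, which says nothing about sites elsewhere.

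Library totals were 18956748 to 44054836 counts for control eyes and 32839893 to 49598700 for Best1-Nrf2 eyes, with control replicate 8 the smallest. The delivered factor was checked first: *Nfe2l2*, the mouse gene for Nrf2, was at 76.7 to 134 CPM (counts scaled to the size of the library; median, 83.0) in control eyes and at 275 to 704 CPM (median, 457) in Best1-Nrf2 eyes (log2 fold change 2.29 ± 0.21 SE, edgeR adjusted p = 6.21e-05, higher in 9 of 9 mice). Reads of the mouse gene and of the human cDNA cannot be told apart in these counts. The eyecup also held other cells. Of the RPE markers, 4 of 10 fell (*Rpe65*, *Rlbp1*, *Lrat* and *Rgr*) and none rose in edgeR with mouse as a block, with a summed level of 9621 to 57094 CPM in controls and of 11394 to 63467 CPM with Best1-Nrf2. *Best1* and *Tyr* went the other way without passing: *Best1* was higher in 9 of 9 mice, by 0.97 on the log2 scale (edgeR adjusted p = 0.0555), and *Tyr* in 8 of 9, by 0.78 (adjusted p = 0.190). *Best1* was called higher by DESeq2, by voom and without the block, and *Tyr* by voom. Cone markers fell in 7 of 8 genes, from a summed 283 to 2172 CPM to 50.1 to 462 CPM, and rod markers in 2 of 6 tested, from 60.2 to 562 CPM to 6.06 to 66.8 CPM. Macrophage and microglia markers rose in 4 of 8 genes (*C1qa*, *C1qb*, *Cx3cr1* and *Tyrobp*; 71.2 to 446 CPM against 92.5 to 361 CPM). *Csf1r* of that list went the other way, from 136 ± 122 to 59.6 ± 33.9 CPM (SD; log2 fold change -0.97, edgeR adjusted p = 0.113, lower in 8 of 9 mice), and was called by DESeq2. *Cd68* (log2 fold change 0.85, edgeR adjusted p = 0.119, higher in 9 of 9 mice) and *Aif1* (1.08, adjusted p = 0.152, 8 of 9) did not pass in edgeR and were called higher by DESeq2 and voom. Among endothelial markers none of 4 passed the test (edgeR, 0 also at an unadjusted p under 0.05 and with DESeq2 or voom), among Muller glia markers 1 of 6 fell (*Rlbp1*), and among fibroblast markers 1 of 5 rose (*Col3a1*, a call lost without the block). *Vim*, another Muller glia marker, was higher in 9 of 9 mice (log2 fold change 0.90, edgeR adjusted p = 0.0770) and was called by DESeq2, by voom and without the block. No marker was at 0 in all libraries, and the part these cells had in the results was not tested beyond the values given below. In bulk samples such as these, fewer cells of a type and less RNA per cell cannot be told apart.

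Of the 8 genes, 5 rose: every step from cystine import by the light chain through both steps of synthesis to recycling had at least 1 gene higher in the Best1-Nrf2 eyes. *Gclc* rose 26.4-fold, *Slc7a11* 11.6-fold, *Gclm* 10.8-fold, *Gss* 6.97-fold and *Gsr* 4.18-fold, whereas *Slc3a2*, *Cth* and *Cbs* did not pass the test. Over all 18958 genes tested, edgeR with mouse as a block called 806 (4.25%), of which 592 were higher (3.12%) and 214 lower (1.13%), and the median log2 fold change was -0.03. All 8 genes had passed the filter on low counts. The 5 risen genes were higher in 9 of 9 mice (591 genes tested, 3.12%, were), and in each of them every Best1-Nrf2 eye was above every control eye (199 genes tested, 1.05%). Ranked by fold change from the highest, *Gclc* was at place 32, *Slc7a11* at 76, *Gclm* at 84, *Gss* at 139 and *Gsr* at 252 of 18958. The count of 5 was unchanged without both eyes of mice 6 and 8. With a score of rod and cone markers in the model it was 0 (5 at an unadjusted p under 0.05), and 32 genes in all were called. That score, the mean log2 CPM of the markers, did not overlap between the groups, at 3.45 to 5.51 in controls and 0.43 to 3.30 with Best1-Nrf2. With that term the log2 fold changes were 3.11 for *Gclc* (edgeR adjusted p = 0.0923), 2.91 for *Gclm* (0.0613), 2.32 for *Slc7a11* (0.131), 1.62 for *Gss* (0.191) and 1.48 for *Gsr* (0.184).

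**Figure D1:**
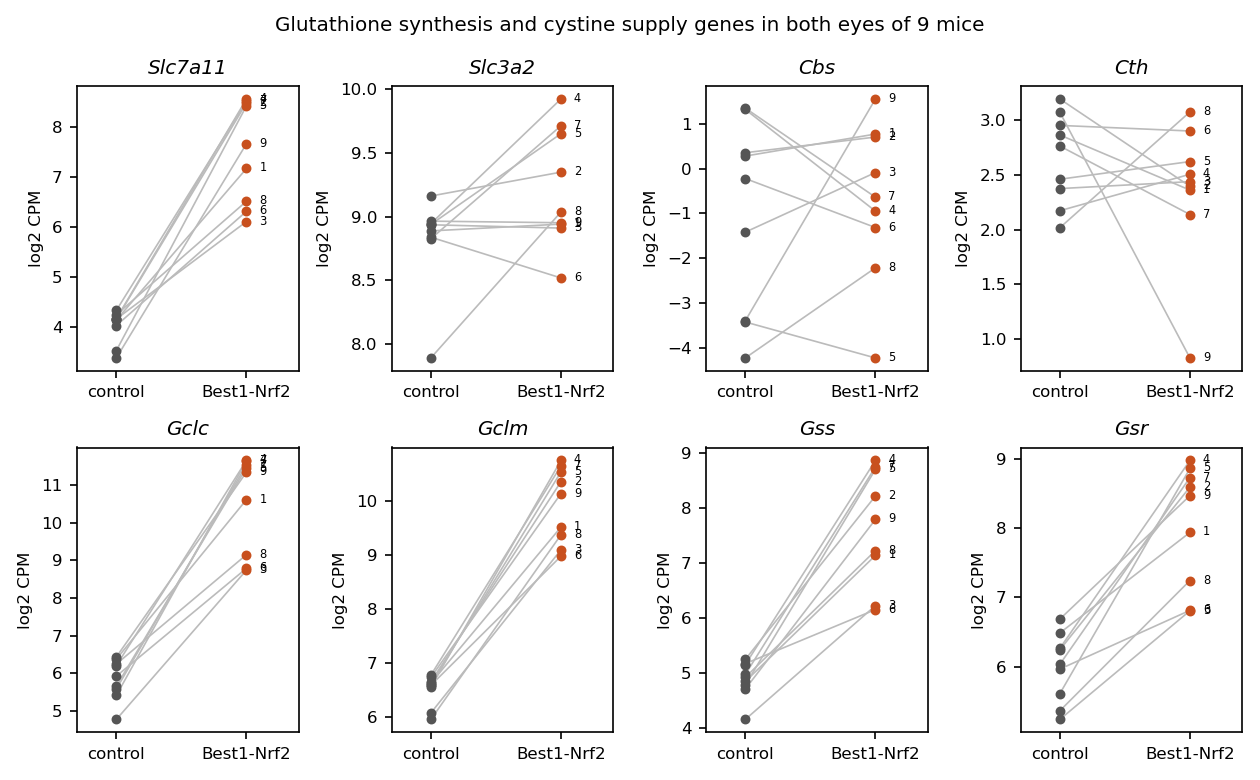
Level of the 8 genes as log2 CPM (prior count 2) in the control and the Best1-Nrf2 eye of each of 9 mice. Grey lines join the eyes of a mouse and digits give the mouse. Control and Best1-Nrf2 eyes do not overlap for *Slc7a11*, *Gclc*, *Gclm*, *Gss* and *Gsr*, and overlap for *Slc3a2*, *Cbs* and *Cth*.

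Cystine import was uneven between its chains. *Slc7a11* (ENSMUSG00000027737, chr3:49892526-50443614, minus strand) was at 10.4 to 20.2 CPM (median, 17.9) in control eyes and at 69.4 to 380 CPM (median, 204) in Best1-Nrf2 eyes. The Best1-Nrf2 eyes of mice 3, 6 and 8 were the lowest, at 69.4, 80.0 and 92.0 CPM, and those of mice 2, 4, 5 and 7 the highest, at 345 CPM or more. The log2 fold change was 3.53 ± 0.37 (SE, edgeR adjusted p = 1.61e-04), and the difference within a mouse ran from 1.95 in mouse 3 to 4.90 in mouse 5.

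*Slc3a2* (ENSMUSG00000010095, chr19:8706882-8723369, minus strand) was already abundant, at 238 to 573 CPM (median, 490) in control eyes, and was at 367 to 970 CPM (median, 525) in Best1-Nrf2 eyes. In 4 of the Best1-Nrf2 eyes it was above every control eye, and in the others the groups overlapped. The lowest control eye was that of mouse 8, the smallest library, and the next lowest control was at 454 CPM. The log2 fold change of 0.40 ± 0.20 (SE, edgeR adjusted p = 0.438, higher in 6 of 9 mice) had a 95% interval of -0.03 to 0.83, so that a rise of up to 1.77-fold is within it. The ratio of light to heavy chain rose by 3.11 ± 1.08 on the log2 scale (SD over 9 mice, positive in 9 of 9, exact sign-flip permutation test over mice, 2-sided p = 0.0039, adjusted p = 0.0064 over 28 pairs of genes). The value 0.0039 is the smallest that 9 mice allow.

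In CPM, the RNA of both transsulfuration enzymes was the lowest of the set in both groups, and neither passed the test between groups. *Cth* (ENSMUSG00000028179, chr3:157894248-157925077, minus strand) was at 3.99 to 9.07 CPM (median, 6.72) in control eyes and at 1.72 to 8.35 CPM (median, 5.36) in Best1-Nrf2 eyes, with no Best1-Nrf2 eye above every control. Its log2 fold change was -0.27 ± 0.31 (SE, edgeR adjusted p = 0.831, higher in 4 of 9 mice; 95% interval, -0.95 to 0.40). The Best1-Nrf2 eye of mouse 9 was the lowest, at 76 counts, and without mouse 9 the log2 fold change was -0.05, against -0.19 to -0.44 without any other mouse.

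*Cbs* (ENSMUSG00000024039, chr17:31608894-31637238, minus strand) had 0 to 112 counts in control eyes and 0 to 127 in Best1-Nrf2 eyes. It was at most 2.49 CPM (median, 0.803) in controls and 2.88 CPM (median, 0.588) in Best1-Nrf2 eyes. No count was found in control replicate 8, which allows up to 0.171 CPM by a floor of 3 counts, or in Best1-Nrf2 replicate 5, which allows up to 0.0777 CPM. Such floors cover counting error only. The log2 fold change of 0.13 ± 0.86 (SE, edgeR adjusted p = 0.980, higher in 5 of 9 mice; 95% interval, -1.75 to 2.01) leaves changes of several fold in either direction within its interval. Within a mouse the log2 difference ran from -2.27 in mouse 4 to 4.95 in mouse 9, and without mouse 3, 8 or 9 the fitted value was below 0 (-0.07, -0.10 and -0.39).

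At the first step of synthesis both ligase subunits rose, and the catalytic one rose more. *Gclc* (ENSMUSG00000032350, chr9:77754535-77794485, plus strand) was at 27.3 to 86.4 CPM (median, 60.6) in control eyes and at 427 to 3209 CPM (median, 2590) in Best1-Nrf2 eyes. Its Best1-Nrf2 eyes fell on either side of a gap: mice 3, 6 and 8 were at 427, 442 and 567 CPM, and the other 6 at 1562 CPM or more. The log2 fold change was 4.72 ± 0.45 (SE, edgeR adjusted p = 7.79e-05; 95% interval of the fold, 13.4 to 51.8), from 2.86 in mouse 6 to 6.22 in mouse 7.

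*Gclm* (ENSMUSG00000028124, chr3:122245557-122270732, plus strand) was at 61.9 to 109 CPM (median, 96.9) in control eyes and at 503 to 1720 CPM (median, 1124) in Best1-Nrf2 eyes. The same 3 eyes were again the lowest, but with a smaller gap to the others. The log2 fold change was 3.43 ± 0.23 (SE, edgeR adjusted p = 8.06e-06; 95% interval of the fold, 7.66 to 15.2), with a range over mice of 2.39 to 4.20. Of its 31-base words, 5.61% also occur in other annotated genes, against 0% for *Gclc*, *Gsr* and *Cth*, so that reads may have been shared. The share was 5.42% for *Cbs*, 4.15% for *Slc3a2*, 2.84% for *Slc7a11* and 0.183% for *Gss*. The ratio of *Gclc* to *Gclm* rose by 1.27 ± 0.90 on the log2 scale (SD, n = 9 mice, positive in 8 of 9, exact sign-flip permutation p = 0.0117, adjusted p = 0.0164), with mouse 8 the exception at -0.51.

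At the second step, *Gss* (ENSMUSG00000027610, chr2:155563181-155592810, minus strand) was at 17.8 to 37.9 CPM (median, 30.3) in control eyes and at 71.1 to 464 CPM (median, 221) in Best1-Nrf2 eyes. The log2 fold change was 2.80 ± 0.31 (SE, edgeR adjusted p = 2.41e-04), from 0.98 in mouse 6 to 3.91 in mouse 5. The recycling enzyme *Gsr* (ENSMUSG00000031584, chr8:33652523-33698163, plus strand) was at 37.6 to 103 CPM (median, 65.3) in control eyes and at 112 to 505 CPM (median, 355) in Best1-Nrf2 eyes. Its log2 fold change was 2.06 ± 0.25 (SE, edgeR adjusted p = 4.07e-04), from 0.85 in mouse 6 to 3.26 in mouse 5. The lowest Best1-Nrf2 eyes for *Gsr*, at 112 CPM in mice 3 and 6, stood just above the highest control at 103 CPM.

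**Figure D2:**
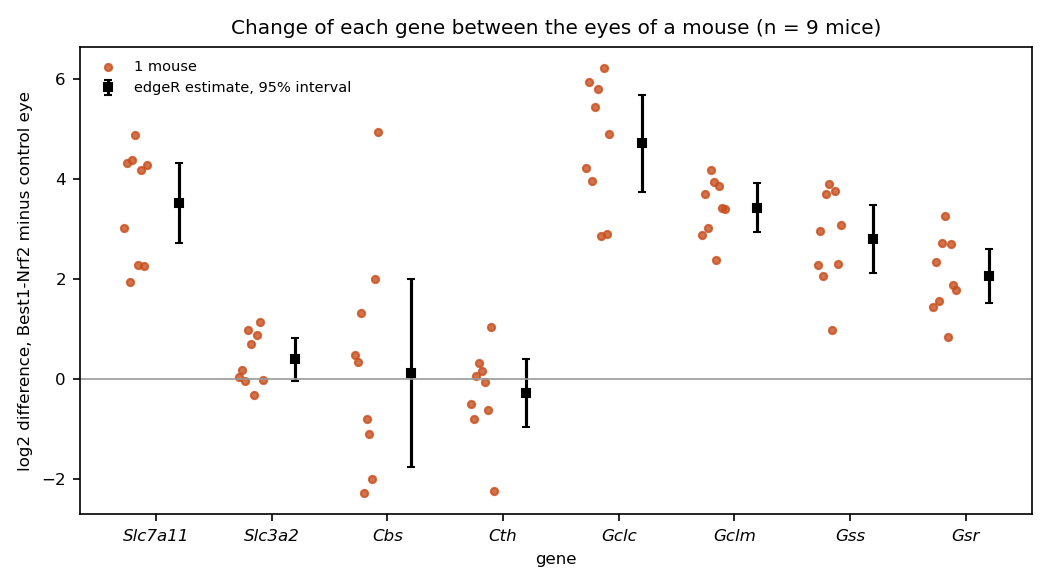
Difference in log2 CPM between the Best1-Nrf2 and the control eye of each mouse (circles, n = 9) for the 8 genes, beside the edgeR log2 fold change with its 95% interval (squares). The intervals of *Slc7a11*, *Gclc*, *Gclm*, *Gss* and *Gsr* lie above 0, and those of *Slc3a2*, *Cbs* and *Cth* include 0.

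The steps were compared with each other by the change of the ratio of each pair of genes within a mouse, which does not depend on how libraries were scaled. In 24 of 28 pairs the ratio changed (exact sign-flip permutation test over 9 mice, Benjamini-Hochberg adjusted over the 28). No share over pairs of other genes was computed for comparison. Pairs of a risen gene with *Slc3a2*, *Cth* or *Cbs* in large part restate the difference between groups. Of the 24 calls, 2 were lost when single mice were left out: the change of *Slc3a2* over *Cth* (0.69 ± 0.79 SD, n = 9 mice, exact permutation adjusted p = 0.0319) in 6 of 9 such tests, with values of 0.50 to 0.81 and adjusted p of 0.0285 to 0.0638, and the change of *Cbs* over *Gss* (-2.45 ± 2.63, exact permutation adjusted p = 0.0285) in 5 of 9, with adjusted p of 0.0104 to 0.0571. With a prior count of 0.5 the call on *Cbs* over *Gss* was lost as well (exact permutation adjusted p = 0.0820), which left 23 pairs. *Gclc* gained on each of the other 4 risen genes: its log2 ratio rose by 1.27 to *Gclm*, by 1.91 to *Gss* and by 2.64 to *Gsr*, and the log2 ratio of *Slc7a11* to *Gclc* fell by 1.19 (0 of 9 mice positive). *Gclm* gained on *Gss* by 0.64 ± 0.46 and on *Gsr* by 1.36 ± 0.29 (SD, n = 9 mice, 9 of 9 positive in both, exact permutation adjusted p = 0.0064 in both). *Gss* gained on *Gsr* by 0.72 ± 0.36 (9 of 9, exact permutation adjusted p = 0.0064). Among the risen genes, *Slc7a11* and *Gclm* were the pair whose ratio did not pass (change 0.09 ± 0.76, 6 of 9 mice positive, exact permutation p = 0.738, adjusted p = 0.766), which does not show that they changed alike. The other 3 pairs that did not pass each held *Cbs*: with *Slc3a2* (0.07 ± 2.48, exact permutation adjusted p = 0.941), *Cth* (0.62 ± 2.82, adjusted p = 0.719) and *Gsr* (-1.73 ± 2.63, adjusted p = 0.109, and -2.35 with adjusted p = 0.0199 without mouse 9).

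Levels of different genes were compared as CPM per kilobase of annotated exon. In control eyes the order of mean levels was *Slc3a2* (131 ± 25.9 CPM per kilobase, SD, n = 9 eyes), *Gsr* (24.2 ± 7.97), *Gclc* (16.1 ± 5.37), *Gclm* (14.7 ± 2.62), *Gss* (5.10 ± 1.04), *Cth* (2.31 ± 0.64), *Slc7a11* (1.19 ± 0.24) and *Cbs* (0.127 ± 0.131). *Gclc* and *Gclm* were not ordered beyond their spread in these eyes, with *Gclc* the higher in 5 of 9. Among the other neighbours, *Gsr* was above *Gclc* in 8 of 9 eyes, and the remaining neighbours kept their order in 9 of 9. In Best1-Nrf2 eyes the order was *Gclc* (524 ± 324 CPM per kilobase), *Slc3a2* (177 ± 57.5), *Gclm* (171 ± 75.7), *Gsr* (111 ± 56.1), *Gss* (42.5 ± 26.2), *Slc7a11* (16.3 ± 9.73), *Cth* (1.96 ± 0.67) and *Cbs* (0.127 ± 0.124). Here *Slc3a2* and *Gclm* were the neighbours not ordered beyond their spread, with *Slc3a2* the higher in 5 of 9 eyes. *Gclc* was above *Slc3a2* in 8 of 9, and the others kept their order in 9 of 9. With the length of the longest annotated transcript in place of all exons the order of mean levels was the same in both groups, but in Best1-Nrf2 eyes *Gclc* was above *Slc3a2* in 6 of 9 and *Slc3a2* above *Gclm* in 7 of 9.

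The RNA levels per length of genes whose products act together or in turn came closer together or moved apart. The ratio of *Gclc* to *Gclm* per kilobase had a median of 1.05 (0.650 to 2.04) in control eyes and of 3.16 (1.31 to 3.85) in Best1-Nrf2 eyes, where *Gclc* was the higher in 9 of 9. The heavy chain *Slc3a2* exceeded the light chain *Slc7a11* 108-fold per kilobase in the median control eye (49.2 to 189) and 10.1-fold in the median Best1-Nrf2 eye (7.15 to 27.3). The ranges of this second ratio did not overlap between the groups. *Gclc* exceeded *Gss* 2.88-fold in the median control eye (1.98 to 5.19) and 10.9-fold in the median Best1-Nrf2 eye (5.96 to 18.4). This ratio depended on the length used, and with the longest transcript its medians were 1.74 and 6.58. The risen genes also varied more between Best1-Nrf2 eyes than between control eyes: the coefficient of variation of CPM was 44.3% to 61.9% for the 5 genes in Best1-Nrf2 eyes and 17.9% to 33.2% in control eyes (not tested). This was not particular to them. In control and Best1-Nrf2 eyes it was 19.7% and 32.5% for *Slc3a2*, 27.6% and 34.2% for *Cth*, and 19.9% and 32.4% for *Nfe2l2*. For *Cbs* it was 104% and 97.5%.

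**Figure D3:**
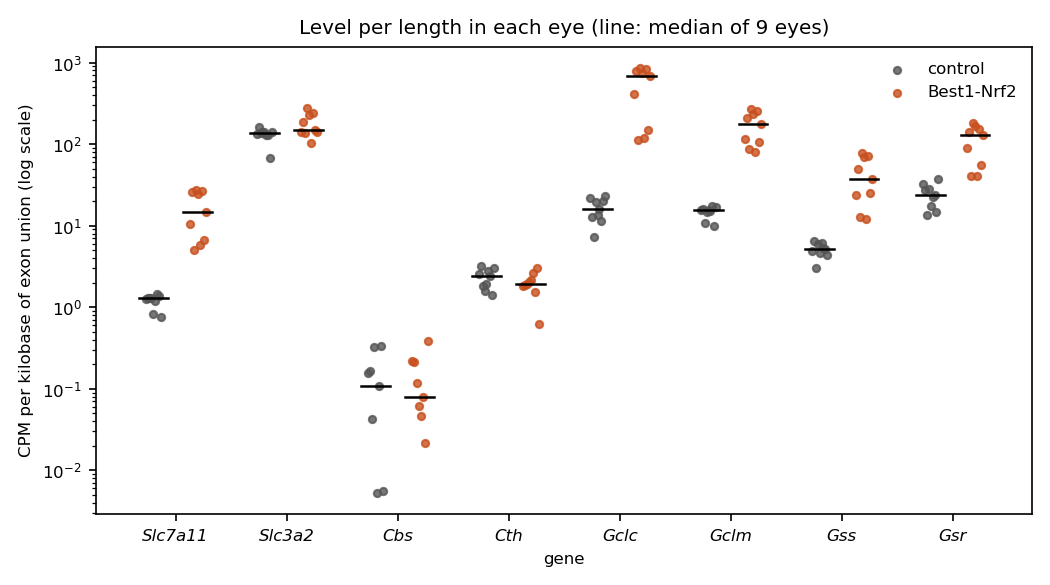
CPM per kilobase of exon in each eye on a log axis, for control (grey) and Best1-Nrf2 (orange) eyes. Lines are the medians of 9 eyes, and the 2 eyes without a *Cbs* count are not drawn. By its median, *Gclc* moves from the level of *Gclm* to the top of the set, and *Slc7a11* stays below *Slc3a2* in all eyes.

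Across the 9 Best1-Nrf2 eyes the risen genes went up and down together. The eye of mouse 4 had the highest level of all 5, and the eyes of mice 2, 4, 5 and 7 held the 4 highest places in each. For *Gclm*, *Gss*, *Gsr* and *Slc7a11*, the 6 pairs had Pearson r of 0.962 to 0.985 and Spearman rho of 0.950 to 0.983 (n = 9 eyes, exact permutation p = 1.38e-05 to 1.74e-04 for r and 4.96e-05 to 3.53e-04 for rho, adjusted p at most 6.94e-04 and 9.77e-04 over 36 pairs). Without the 2 eyes farthest from the median, r was 0.896 to 0.978. The Best1-Nrf2 eye of mouse 6, lowest or second lowest in all 5 risen genes, stood apart in its rod and cone score, at 3.30 against 0.43 to 1.73 in the other 8. Without it, an alternative chosen after the data were seen, the 6 pairs had r of 0.947 to 0.980 and rho of 0.929 to 0.976 (n = 8 eyes, exact permutation p at most 7.19e-04 and 0.00223, adjusted p at most 0.00288 and 0.00618). With upper-quartile scaling these 6 pairs passed as well, whereas over all 36 pairs the number past the rank test was 14, against 22 with TMM. All these values share the scaling of a library. How often pairs of other genes reach such values in these eyes was not computed.

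Because *Gclc* fell into 2 clusters of Best1-Nrf2 eyes, with 50.2% of its log2 range in 1 gap, its correlations are given within the 6 eyes above the gap, a choice made after the data were seen. There the 10 pairs of the risen genes had r of 0.909 to 0.986 and rho of 0.829 to 1.00 (n = 6 eyes, exact permutation p = 0.00139 to 0.0181 for r and 0.00278 to 0.0583 for rho, adjusted p = 0.00833 to 0.0325 and 0.0143 to 0.0913 over 36 pairs). By rho, 8 of the 10 passed. Without the 2 eyes farthest from the median, r ran from 0.214 to 0.962 over both genes of each pair, so that some of these relations rest on those eyes.

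*Slc3a2*, which had not passed the test between groups, had a similar order of eyes. With *Gclm*, *Gss*, *Gsr* and *Slc7a11* it had r of 0.838 to 0.925 and rho of 0.917 to 0.983 (n = 9 Best1-Nrf2 eyes, exact permutation p = 3.61e-04 to 0.00666 for r and 4.96e-05 to 0.00131 for rho, adjusted p at most 0.0150 and 0.00278), and r of 0.753 to 0.937 without the 2 eyes farthest in either gene of a pair. Without the eye of mouse 6, 3 of the 4 passed by r (0.770 to 0.892, n = 8) and all 4 by rho, and with upper-quartile scaling all 4 passed by r and 3 by rho. *Nfe2l2* with the same 4 genes had r of 0.796 to 0.877 and rho of 0.883 to 0.950 (exact permutation p = 0.00285 to 0.0142 and 3.53e-04 to 0.00308, adjusted p at most 0.0269 and 0.00527), and r was 0.615 to 0.795 without the 2 eyes farthest in *Nfe2l2* and 0.914 to 0.983 without the 2 farthest in the other gene. Without the eye of mouse 6, 1 of the 4 passed by r (0.720 to 0.833, n = 8) and all 4 by rho, and with upper-quartile scaling 3 passed by r and 0 by rho (0.650 to 0.683). The eye of mouse 3 stood off this relation: its *Nfe2l2* level of 428 CPM was close to the median of 457 CPM, while its *Slc7a11*, *Gclc* and *Gsr* levels were the lowest of the 9. For *Cth* and *Cbs* no relation passed by r in their 11 pairs without *Gclc* (unadjusted exact permutation p = 0.0820 at the smallest). There r ran from -0.64, for *Cbs* with *Cth*, to -0.01, and with the other genes the lowest was -0.39 (*Cth* with *Gsr*). In the 6 eyes above the gap in *Gclc*, *Cth* had r of 0.04 to 0.41 with the risen genes, none past the test. *Cbs* with *Cth* passed by rank (rho = -0.85, n = 9, exact permutation p = 0.00607, adjusted p = 0.00994; r = -0.64, and -0.74 or -0.46 without the 2 eyes farthest in either gene).

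In control eyes 0 of 36 pairs passed by r or by rho (exact permutation tests, smallest adjusted p 0.325 and 0.765; 3 and 1 at an unadjusted p under 0.05). Over the 10 pairs of the 5 risen genes r was -0.33 to 0.79 with a median of 0.34, and 7 were positive. *Gclm* with *Gsr* had the highest r, 0.79 (rho = 0.63, n = 9 control eyes, exact permutation p = 0.00904 and 0.0760), and 0.29 without the 2 farthest eyes. *Slc7a11* with *Slc3a2* had r = -0.28 in control eyes (rho = -0.50, exact permutation p = 0.411 and 0.178, n = 9) and r = 0.86 in Best1-Nrf2 eyes (rho = 0.92, exact permutation p = 0.00572 and 0.00131, n = 9). Whether the correlations differ between the groups was not tested. The mean log2 CPM of RPE, rod and cone, and macrophage markers was set against the 8 genes in the same way, and none of 24 relations passed in either group (by r, 5 in Best1-Nrf2 and 2 in control eyes at an unadjusted p under 0.05, and 0 by rho). For rod and cone markers with the 5 risen genes in Best1-Nrf2 eyes, r was -0.62 to -0.72 (n = 9, exact permutation, adjusted p = 0.136 to 0.213). For *Slc3a2* it was -0.66 (exact permutation p = 0.0415, adjusted p = 0.199; rho = -0.57, p = 0.121), and -0.85 without the 2 farthest eyes. In control eyes *Slc3a2* had r = 0.89 with the RPE markers (exact permutation p = 0.0226, adjusted p = 0.351; rho = 0.45, p = 0.230), and 0.46 without the 2 farthest eyes. Control replicate 8, lowest in *Slc3a2*, was also the lowest control in the RPE score, at 7.61 with the next at 8.74.

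**Figure D4:**
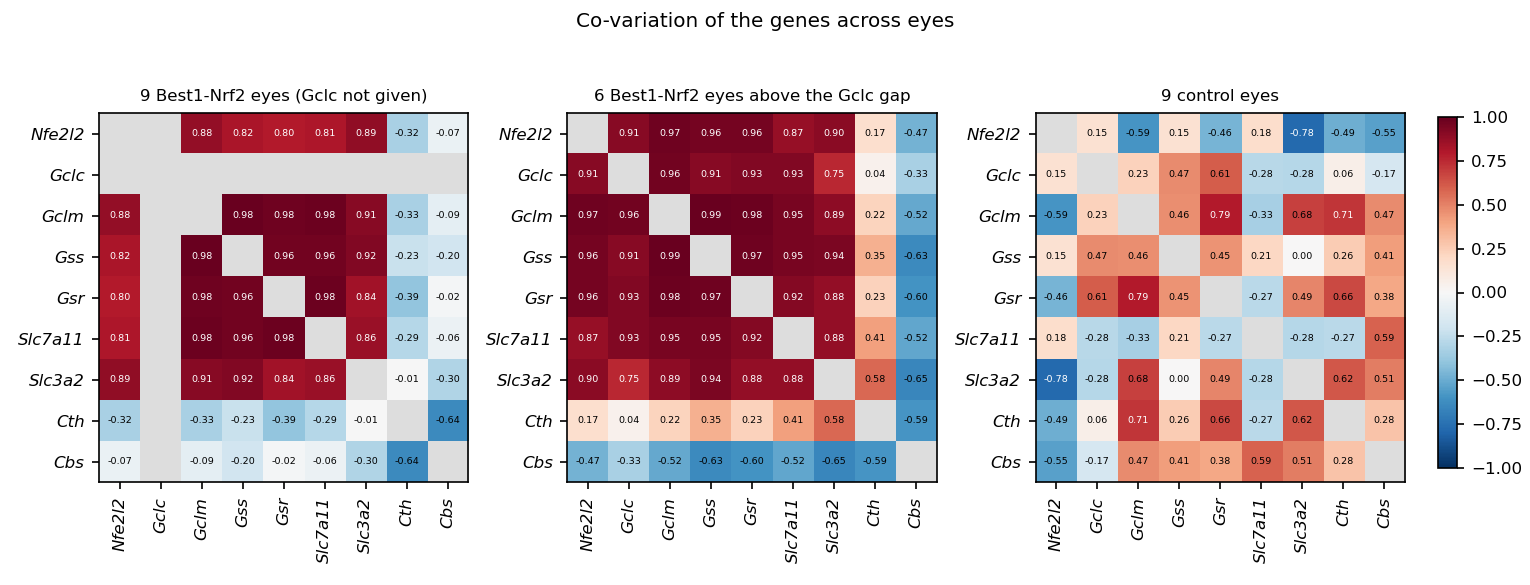
Pearson r of log2 CPM between the genes and *Nfe2l2* within 9 Best1-Nrf2 eyes (left), the 6 of them above the gap in *Gclc* (middle) and 9 control eyes (right). Grey cells are not given. On the left the risen genes other than *Gclc*, *Slc3a2* and *Nfe2l2* are in red, and *Cth* and *Cbs* have values below 0 with them. In the middle all 5 risen genes, *Slc3a2* and *Nfe2l2* are in red and only *Cbs* is below 0 with them, and on the right no pair passes the test.

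**Figure D5:**
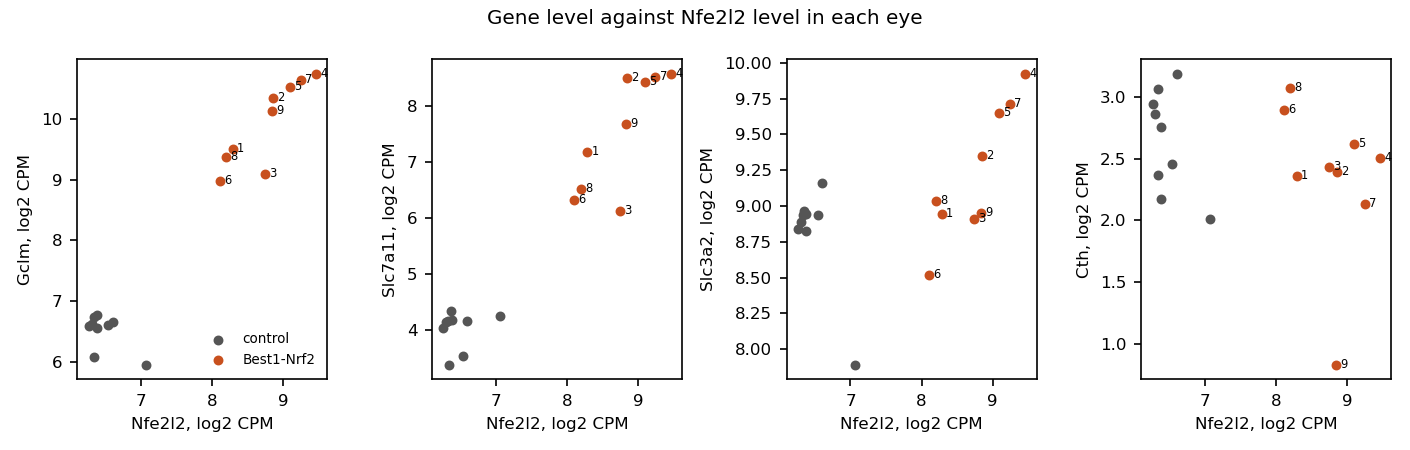
Log2 CPM of *Gclm*, *Slc7a11*, *Slc3a2* and *Cth* against that of *Nfe2l2* in each eye, with digits for the mouse of each Best1-Nrf2 eye. Control eyes sit at the left, and control replicate 8 is the control with the highest *Nfe2l2* and the lowest *Slc3a2*. Among Best1-Nrf2 eyes mouse 3 lies low in *Slc7a11* for its *Nfe2l2*.

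The wider supply of the pathway was described with 7 lists that hold 62 other genes, of which 57 were tested. Of these, 4 were higher (7.02%, against 3.12% of all genes) and 1 lower (1.13% of all genes were). In the list of other cystine, cysteine and glutamate carriers, 1 of 10 tested genes rose: *Slc1a4*, a carrier of neutral amino acids that include alanine, serine and cysteine, from 6.58 ± 3.32 to 213 ± 147 CPM (SD, n = 9 eyes per group; log2 fold change 4.70 ± 0.59 SE, edgeR adjusted p = 5.87e-04, higher in 9 of 9 mice). The median of that list was -0.07. DESeq2 and voom called *Slc1a2* and *Slc1a7* too, which were at -1.02 and -1.93 on the log2 scale in edgeR (adjusted p = 0.169 and 0.285). Of the 5 light chains other than *Slc7a11* that pair with *Slc3a2*, none rose and *Slc7a10*, a carrier of small neutral amino acids, fell from 213 ± 89.8 to 122 ± 30.8 CPM (log2 fold change -0.71 ± 0.17, edgeR adjusted p = 0.0337, lower in 8 of 9 mice, a call lost without mouse in the model). The median of the light chains was 0.09.

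Among genes that use cysteine for other ends, 1 of 11 rose: *Sqor*, the mitochondrial enzyme that oxidizes hydrogen sulfide, from 21.5 ± 3.67 to 90.8 ± 35.5 CPM (log2 fold change 1.99 ± 0.22, edgeR adjusted p = 2.41e-04, 9 of 9 mice), with a list median of 0.02. Voom also called *Csad*, at a log2 fold change of -0.53 in edgeR (adjusted p = 0.131, lower in 9 of 9 mice), and *Tst*, at 0.58 (adjusted p = 0.221, higher in 8 of 9). Among genes of glutathione transport and the glutaredoxins, 2 of 9 rose, both efflux pumps of the ABC family. *Abcc4* went from 44.5 ± 17.03 to 411 ± 257 CPM (log2 fold change 2.95 ± 0.39, edgeR adjusted p = 7.25e-04, 9 of 9 mice) and *Abcc1*, which exports glutathione and its conjugates, from 71.0 ± 31.6 to 169 ± 65.0 CPM (1.25 ± 0.23, adjusted p = 0.00769, 9 of 9 mice). The list median was 0.16. Voom called *Slc25a39* as well (log2 fold change 0.42, edgeR adjusted p = 0.274).

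Genes for the supply of the other amino acids of glutathione had no call in edgeR. None of 6 tested glycine and serine genes passed there (list median -0.08, 2 at an unadjusted p under 0.05). Of that list, DESeq2 called *Phgdh*, and voom called *Phgdh* and *Psat1* (log2 fold change of *Psat1* -0.46 in edgeR, adjusted p = 0.155). The smallest p there was that of *Phgdh*, the first enzyme of serine synthesis, at 406 ± 123 CPM in controls and 257 ± 44.0 CPM with Best1-Nrf2 (log2 fold change -0.61 ± 0.18, edgeR adjusted p = 0.102, lower in 8 of 9 mice). None of 6 glutamate and glutamine enzymes passed either (list median 0.05; 0 at an unadjusted p under 0.05 and 0 with DESeq2 or voom), with the smallest p for *Glul*, glutamine synthetase, which is also among the Muller glia markers (0.46 ± 0.21, edgeR adjusted p = 0.395). The methionine cycle and transsulfuration list, which holds the steps upstream of *Cbs*, had 0 of 10 tested genes called and a median of 0.17 (edgeR; 2 at an unadjusted p under 0.05, 0 with DESeq2 or voom). Its smallest p was that of *Ahcyl1*, a relative of the enzyme that splits S-adenosylhomocysteine (0.50 ± 0.21, edgeR adjusted p = 0.337).

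Other genes with the most similar pattern were sought among 11802 genes by Pearson r of the within-mouse differences over 9 mice, as a description. For *Gclc* these were *Mroh7* (r = 0.970), *Txnrd1*, the cytosolic thioredoxin reductase (0.968), and *Homer3* (0.966), and of the 3 only *Txnrd1* passed the test between groups (log2 fold change 4.08, edgeR adjusted p = 4.13e-05). For *Gclm* they were *E2f6* (0.978), *Ctsd*, the lysosomal protease cathepsin D (0.959), and *Hfe*, a regulator of iron uptake (0.958), which all passed (1.32, 2.06 and 2.81 on the log2 scale, edgeR adjusted p = 0.00136, 6.27e-04 and 2.85e-05). *Hfe* was also among the 3 of *Gss* (0.945), with *Tmem158* (0.953) and *Fam114a1* (0.945). *Slc7a11* was most like *Pfkfb4*, an enzyme that sets the level of a regulator of glycolysis (0.954), *Zfyve28* (0.944) and *Cpeb1* (0.939). *Gsr* was most like *Lmbr1* (0.975), *Rpa1* (0.973) and *Vps41* (0.967), and *Slc3a2* like *Rmdn2* (0.975), *Gnpda1* (0.971) and *Mettl21a* (0.965), and none of these 6 passed the test between groups. *Cth* was nearest to *Map2k6* (0.928), *Rragb* (0.922) and *Mfge8* (0.912), and *Cbs* to *Sertad1* (0.941), *Traf3ip2* (0.915) and *Crb3* (0.884).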

How the data were processed

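RNA from the eyecup of 9 *rd1* mice was amplified with a low-input kit and sequenced in separate runs that the labels do not assign to libraries. The authors used STAR, featureCounts, Salmon 0.8.1 (version per the submitters' processing notes) and tximport with mm10 and Ensembl 91. The deposited table holds unscaled expected counts for each gene as whole numbers; which counter made it is not given in the sources used here. No molecular identifiers are described, so precision from counts covers counting error only. Symbols matched 47224 of 47729 gene IDs, and coordinates follow release 21 of GENCODE for the mouse (GRCm38).

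Genes were kept by filterByExpr (18958, with 99.87% of counts), scaled by TMM and tested in R 4.3.3 with edgeR 4.0.16 by its quasi-likelihood F test, with mouse as a block and Benjamini-Hochberg adjustment (threshold 0.05). Log2 CPM had a prior count of 2. The standard error was taken from the F statistic. Mouse numbers are the animals of the labels, which list more *rd1* pairs at P40 than the methods of the study state. Expression gave little evidence of the pairs, as the correlation of the deviations of the eyes of a mouse had a median of -0.00095 (range, -0.37 to 0.64; 3 of 9 over 0.1). The separate mice are the replicates, and no pair of libraries was a duplicate (lowest chi-square per degree of freedom 44.5 over 72 pairs). Ratios of genes were tested by exact sign flips over mice, and correlations by exact permutation of all pairings, within a group.

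The 8 genes and the lists were chosen with earlier results of these data known. Named are the 8 genes, *Nfe2l2*, list genes past the threshold (or the one with the smallest p), and the 3 genes most like each of the 8 among those whose mean log2 CPM was 2 or more. Alternatives were no block, RLE and upper-quartile scaling, DESeq2 1.42.0, limma voom 3.58.1, other count filters, a rod and cone marker term, another prior count, transcript length and leaving out mice. The scripts were tested on simulated data.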

Additional observations from a re-analysis of the deposited data

Results flagged for a closer look

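In 4 of 18 groups of 9 eyes, a library lay farther from the others than Dixon's criterion for 9 values (0.493 of the range) allows, where 0.9 groups would be found by chance. *Slc3a2* was at 7.89 log2 CPM in control replicate 8, with the next control at 8.83 and 4169 counts behind the value. *Nfe2l2* was at 7.06 log2 CPM in the same library, the smallest of the series, with the next at 6.60. *Gss* was at 4.16 log2 CPM in control replicate 3 (500 counts), with the next control at 4.71. *Cth* was at 0.83 log2 CPM in Best1-Nrf2 replicate 9 (76 counts), with the next at 2.14.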

How the results depend on the processing

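The 5 calls among the 8 genes held under every alternative run but 1. With the rod and cone marker term, 0 of the 8 genes and 32 genes in all were called, and the log2 fold changes were 3.11 for *Gclc*, 2.91 for *Gclm*, 2.32 for *Slc7a11*, 1.62 for *Gss*, 1.48 for *Gsr*, 1.03 for *Cth* and -2.82 for *Cbs*, the last pair with a reversed sign and no call. That term did not overlap between the groups. Without the replicate block, 742 genes and the same number of members, 5, were called, *Cbs* was at -0.0020 and 0 light chains were lower; it changed no other call reported for the 8 genes. The number of genes called was 1478 with DESeq2, 1426 with voom (*Cbs* at -0.14), 1130 without mice 6 and 8 and 540 to 1046 when each mouse was left out. Leaving out each mouse gave -0.39 to 0.55 for *Cbs*, -0.023 to 0.24 for the change of *Slc7a11* over *Gclm*, -0.33 to 0.70 for *Slc3a2* over *Cbs* (-0.061 with a prior count of 0.5) and -0.20 to 1.02 for *Cbs* over *Cth*, none of them a call, and 22 to 24 changed ratios. *Cbs* could not be fitted with at least 10 counts in every library. Pairs past the rank test in Best1-Nrf2 eyes (of 36, *Gclc* included) numbered 22, and 14 with upper-quartile scaling; the cause was not tested. By r they numbered 21, 18 with that scaling and 15 without the eye of mouse 6. With transcript length, CPM per kilobase was 1.80 for *Slc7a11*, 165 for *Slc3a2*, 3.55 for *Cth* and 9.25 for *Gss* in control eyes, and 24.6 for *Slc7a11*, 3.01 for *Cth* and 77.1 for *Gss* in Best1-Nrf2 eyes, since the length itself is shorter. Values of *Cbs* rest on few counts (at most 127).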
